A study of Drosophila melanogaster with 19 samples.

Results

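Mi1 and Tm3 neurons of the fly optic lobe were compared with each other gene by gene. The members are the libraries that the count table names for Mi1 and for Tm3, 3 of each type, so 2 of the 19 GEO samples and 6 of the 57 libraries entered the comparison. The series profiled 17 single types of optic lobe neuron by RNA sequencing, together with sorted neurons and a T1 and Tm1 mixture. All flies were adult Drosophila melanogaster between 3 and 6 days old. Mi1 cells and Tm3 cells each came from a Gal4 line for that type, crossed to UAS-Red Stinger, which puts a red fluorescent protein into nuclei, and the labelled cells were sorted by fluorescence from dissociated brains. The driver of each line, the sex of the flies and the number of brains are not given in the labels, so a line that also marks other cells cannot be seen from them. Both groups carry the Gal4 and UAS transgenes, and the labels name no further treatment or mutation.

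Mi1 and Tm3 are columnar interneurons of the medulla that belong to the ON pathway, which carries the response to light increments. Both receive synapses from the lamina neuron L1, which releases glutamate, and both make cholinergic synapses onto T4, the neuron in which direction selectivity for moving bright edges arises. Mi1 stays within the medulla, whereas Tm3 also sends its axon on to the lobula, and the 2 types have different shapes, synaptic partners and response times.

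The Mi1 libraries held 6.675, 14.920 and 24.967 M (mega) reads in genes and the Tm3 libraries 21.641, 17.150 and 20.102 M, against a median of 21.76 M over the 57 libraries. Libraries of the same type differed by more than sampling noise, by a chi-square per degree of freedom of 29.58 to 36.13 between Mi1 libraries and of 137.96 to 220.79 between Tm3 libraries. Since each type is 1 GEO sample, p-values here reflect variation among libraries only, and that variation could be technical. The spread was estimated from all 57 libraries, so p-values and SEs also carry variation within the other types. Levels are given in CPM, read counts per M reads after TMM scaling, in library order 1, 2 and 3. A log2 fold change above 0 means a higher level in Mi1, and a gene is called when its Benjamini-Hochberg adjusted p in the edgeR quasi-likelihood test is under 0.05 and its fold change is 2 or more.

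The marker genes separated the sorted cells as their labels say, with 1 exception. bsh, a homeodomain factor known from Mi1, stood at 619, 601 and 728 CPM in Mi1 and at 0.0459, 0.0559 and 0.555 in Tm3. Every Mi1 library was above every Tm3 library (log2 fold change 11.45, SE 1.13, edgeR adjusted p = 4.78e-10), and the next type, C3, averaged 3.13 CPM. bsh lies on chromosome 2L at 19765776 to 19769067 on the minus strand (BDGP6). hth, the homeodomain partner of exd that is also known from Mi1, stood at 1391, 1434 and 1661 CPM in Mi1 and at 273, 313 and 195 in Tm3. Its groups did not overlap (log2 fold change 2.52, SE 0.172, edgeR adjusted p = 4.88e-16).

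On the Tm3 side, vvl, a POU-domain factor, stood at 2.43, 2.48 and 3.03 CPM in Mi1 and at 437, 714 and 405 in Tm3 (log2 fold change -7.59, SE 0.863, edgeR adjusted p = 9.49e-09). Tm3 had the highest mean of the 17 types for vvl, which lies on chromosome 3L at 6790158 to 6794941 on the plus strand (BDGP6). DIP-theta, a cell-surface immunoglobulin protein, stood at 2.43, 4.50 and 1.54 CPM in Mi1 and at 891, 1279 and 1579 in Tm3. The groups were far apart (log2 fold change -8.80, SE 0.940, edgeR adjusted p = 3.89e-09), and no other type averaged above 26.4 CPM. DIP-theta lies on chromosome 2L at 5626291 to 5658560 on the minus strand (BDGP6), and 12.6% of its exon bases are shared with lncRNA:CR44822 on the same strand. Tk, the tachykinin neuropeptide gene, did not separate the types. It stood at 4829, 3619 and 3324 CPM in Mi1 and at 1420, 2354 and 4340 in Tm3, with overlapping groups (log2 fold change 0.54, SE 0.642, edgeR adjusted p = 0.692). Mi1 had the highest and Tm3 the third highest mean Tk of the 17 types.

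The defining markers of glia, photoreceptors and hemocytes were at or near 0 in both types, though some other genes of these lists were not. These levels describe RNA and not cells, since in bulk samples fewer cells of a type and less RNA per cell cannot be told apart. The 18 tested glial genes summed to 94 to 134 CPM in Mi1 and 117 to 190 in Tm3, with none called, and repo, the factor that defines most glia, was at no more than 3.28 CPM in any library. ninaE, the main rhodopsin, had 0.856 CPM in 1 Mi1 library and 0 in the other 5, and the hemocyte gene Hml was at no more than 0.285. The 9 tested hemocyte genes summed to 765 to 843 CPM in Mi1 and 327 to 483 in Tm3, and 7 had a higher mean in Mi1. Pxn, which encodes an extracellular matrix peroxidase, was the 1 that was called, at 614 to 693 CPM in Mi1 and 146 to 258 in Tm3. Col4a1 went the other way without overlap, at 23.7 to 32.1 CPM in Mi1 and 76.0 to 122 in Tm3, but was not called (log2 fold change -1.80, edgeR adjusted p = 0.124). The 17 tested photoreceptor genes summed to 2154 to 2417 CPM in Mi1 and 1384 to 1928 in Tm3, and 3 were called: rdgA, a diacylglycerol kinase gene at 1357 to 1565 CPM in Mi1 and 483 to 925 in Tm3, and eys and inaD, both higher in Tm3. The tested genes of fat body (8), muscle (11), trachea (4), sex-biased transcripts (8) and immune peptides (5) held none that was called. Pan-neuronal genes (12 tested) held none either, and elav, the neuronal RNA-binding protein, stood at 411 to 550 CPM in Mi1 and 364 to 549 in Tm3. Of all tested genes 6.40% were called, so none or 1 called gene in a list this short is near that share. repo, ninaE, Hml, Col4a1 and elav were chosen after their values were seen.

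Mi1 and Tm3 were the most alike pair of single types by both measures computed. In all, 805 of the 12569 tested genes were called between them (6.40%), against 990 in the next pair, C2 and C3, 1129 in Mi1 and Tm2, and a median of 2901.5 over the pairs. Mean levels correlated across genes with r = 0.9647, the highest of all pairs, whose median was 0.9104 and lowest 0.7337. Genes are not independent replicates, and these ranks are descriptions.

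**Figure D1:**
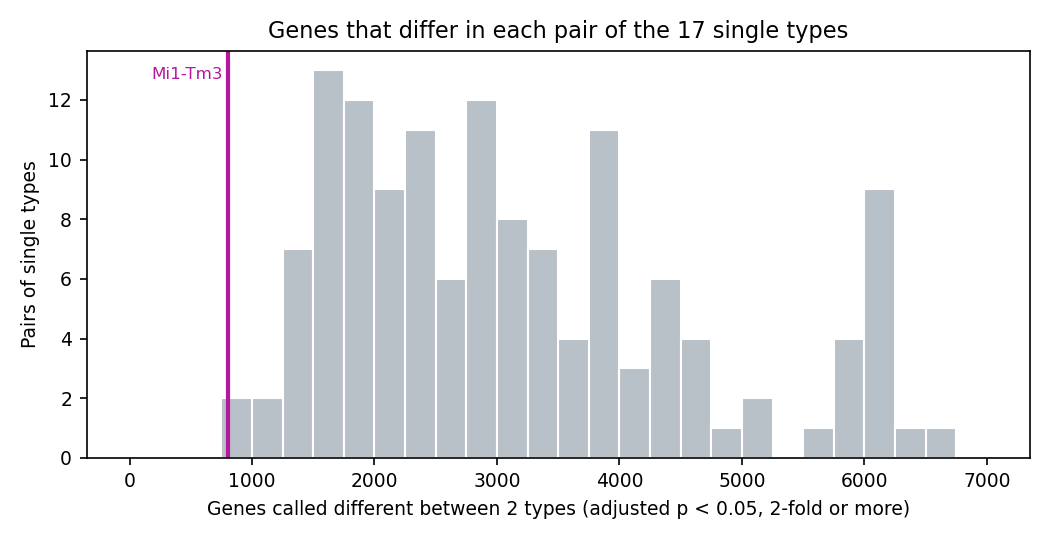
Number of genes called different in each pair of the 17 single types, as a histogram with the number of called genes on the x axis and the number of pairs on the y axis. The line marks Mi1 and Tm3, with 805 genes the lowest of all pairs, whose median is 2901.5.

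Of the called genes, 320 were higher in Mi1 (2.55% of the tested genes) and 485 in Tm3 (3.86%). These shares, 6.40% together, are the background for the counts of called list members given above and below. The count for Mi1 was 208 without Tm3 library 3. On the adjusted p alone, 1114 genes (8.86%) passed. The libraries of the 2 types did not overlap for 2753 genes (21.9%) and for 767 of the 805 called ones. Where a called gene is said not to overlap, this therefore adds little to its call. The median log2 fold change over the tested genes was -0.03. Differences of 16-fold or more made up 78 of the genes higher in Mi1 and 150 of those higher in Tm3, and 148 and 170 lay under 4-fold. Few of these genes had their highest mean of all 17 types in the type itself: 67 of the 320 in Mi1 and 42 of the 485 in Tm3. The highest mean was in T2 for 65 of the 320 and 75 of the 485, in Lawf1 for 34 and 51, and in Dm8 for 8 and 38. The T2 libraries held only 9.444, 2.531 and 0.602 M reads in genes. Their TMM factors of 0.485, 0.548 and 0.697 were the lowest of the 57 libraries and raise T2 levels in CPM, so comparisons with T2 are less certain.

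**Figure D2:**
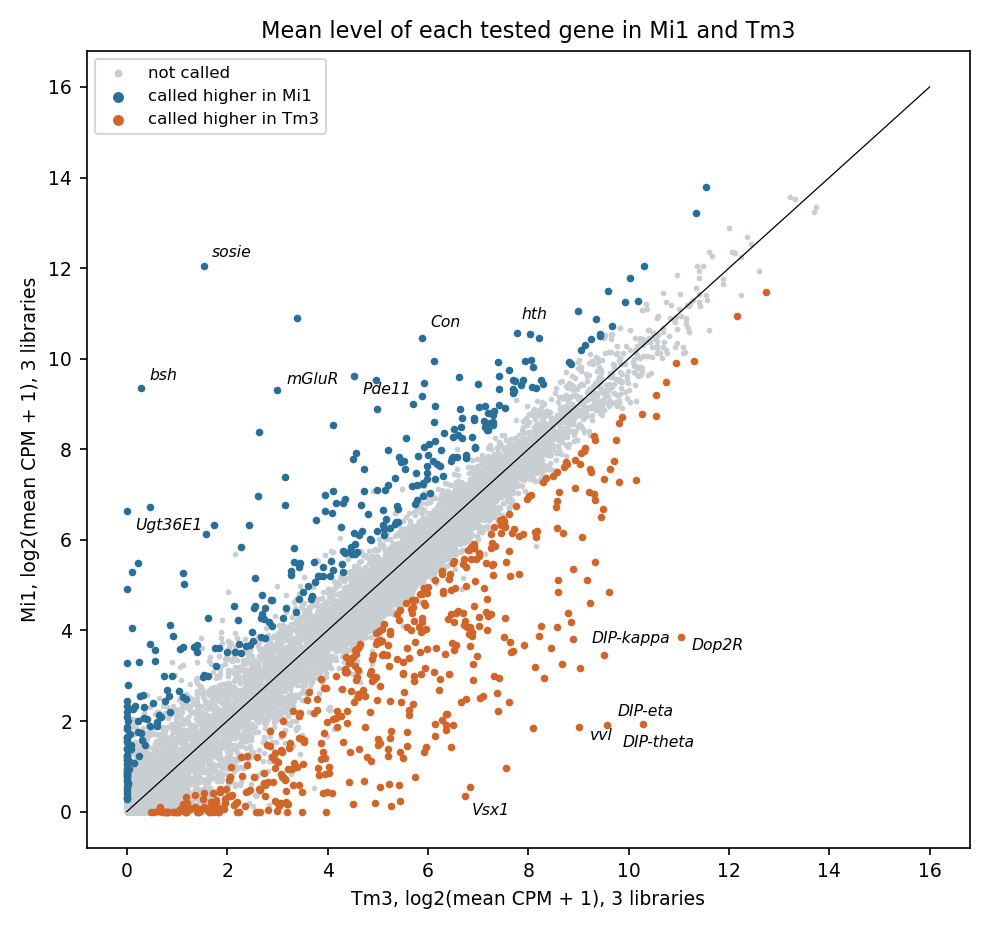
Mean level of every tested gene in Tm3 (x axis) and Mi1 (y axis), as log2 of mean CPM plus 1 over 3 libraries a type, with called genes in colour. Most genes lie along the diagonal of equal levels, bsh and sosie stand far above it, and vvl, DIP-theta, DIP-eta and Vsx1 far below.

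The genes of largest fold change were taken from called genes with at least 20 CPM in the higher type and no overlap between the types. They were far lower in the other type, and several were at or near 0 there. Ugt36E1, a UDP-glycosyltransferase gene, stood at 92.5, 110 and 93.9 CPM in Mi1 and at 0 in all Tm3 libraries. That is at least 2016-fold higher in Mi1, taking 3 counts over the Tm3 group as the floor (edgeR adjusted p = 8.89e-08). SmydA-1, of the SET and MYND domain family, stood at 35.1, 25.5 and 27.2 CPM in Mi1 and at 0 in Tm3, at least 598-fold higher on the same floor (edgeR adjusted p = 3.68e-06). Neither gene was near these levels elsewhere, with the next types at 0.889 CPM (Tm5c) for Ugt36E1 and 7.26 (Tm2) for SmydA-1. sosie stood at 4173, 4053 and 4503 CPM in Mi1 and at 0.964, 4.42 and 0.277 in Tm3. Its log2 fold change was 11.18 (SE 1.36, edgeR adjusted p = 7.31e-08), but T2 averaged 8209 CPM.

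Further genes of this kind in Mi1 were enzymes and a trafficking gene. fbp, which encodes fructose-1,6-bisphosphatase of gluconeogenesis, stood at 36.5, 31.1 and 47.7 CPM in Mi1, and its highest Tm3 library had 0.184. Pde11, a cyclic nucleotide phosphodiesterase gene, stood at 708, 857 and 805 CPM in Mi1 and at 35.9, 7.5 and 22.9 in Tm3 (log2 fold change 5.16, SE 0.666, edgeR adjusted p = 1.58e-07). Rab27, a small GTPase of vesicle traffic, stood at 283, 353 and 354 CPM in Mi1 and at 3.99, 5.54 and 6.19 in Tm3 (log2 fold change 5.98, SE 0.704, edgeR adjusted p = 2.02e-08). All 3 genes had their highest mean of the 17 types in Mi1, as did CG17193, at 2097, 1775 and 1833 CPM in Mi1 and no more than 21.9 in Tm3. CG14340 and CG1504 were also among these leading genes, at 90.9 to 118 and 60.4 to 76.5 CPM in Mi1 and no more than 0.740 and 3.31 in Tm3.

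In Tm3, the leading genes were transcription factors, surface proteins and receptors, which are described by role in the paragraphs on those groups, together with CG9109 and a long noncoding RNA. CG9109 stood at 209, 38.3 and 93.7 CPM in Tm3, with 0.521 as its highest Mi1 value (log2 fold change -7.98, SE 1.38, edgeR adjusted p = 1.08e-04). lncRNA:CR45414 stood at 24.7, 53.5 and 34.6 CPM in Tm3 and at 0, 0 and 0.276 in Mi1, and no other type averaged above 0.286. The edgeR adjusted p of this RNA was 0.00114, but DESeq2 gave 0.617.

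Transcription factors divided the pair in both directions. Of 58 tested homeodomain factors, 4 were higher in Mi1 (bsh, Ptx1, hth and acj6) and 9 in Tm3 (among them CG4328, Vsx1, vvl, zfh1, pdm3 and Lmx1a), with a list median of 0.34. Of 83 other factors, 6 were higher in Mi1 and 12 in Tm3, with a median of -0.24. Vsx1, a homologue of the vertebrate visual system homeobox genes, stood at 0.571, 0 and 0.236 CPM in Mi1 and at 144, 61.7 and 112 in Tm3 (log2 fold change -8.92, SE 0.931, edgeR adjusted p = 8.97e-10). Every Tm3 library was above every Mi1 library, and Vsx1 lies on chromosome X at 5594255 to 5612865 on the plus strand (BDGP6).

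pdm3, a POU factor, stood at 5.28, 5.60 and 9.21 CPM in Mi1 and at 367, 310 and 276 in Tm3 (log2 fold change -5.54, SE 0.654, edgeR adjusted p = 2.59e-08), and Tm2 was higher than either, at 4629. CG9932, a zinc finger gene, stood at 2.43, 4.30 and 4.25 CPM in Mi1 and at 211, 147 and 147 in Tm3 (log2 fold change -5.47, SE 0.340, edgeR adjusted p = 1.99e-17). Neither overlapped between the types. On the Mi1 side, sim, the bHLH-PAS factor known from the embryonic midline, stood at 45.7, 45.7 and 40.9 CPM in Mi1 and at 0, 0.504 and 0 in Tm3 (log2 fold change 8.14, SE 1.04, edgeR adjusted p = 1.63e-07). Tm9 had 320 CPM of sim.

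Some Tm3 factors were uneven across the Tm3 libraries. fd59A, a forkhead factor, stood at 0.285, 0 and 0.118 CPM in Mi1 and at 51, 4.36 and 33.6 in Tm3, and zfh1, a zinc finger homeodomain factor, at 0, 0 and 0.354 in Mi1 and at 32.5, 6.94 and 26.1 in Tm3. Sox102F stood at 64.6, 13.5 and 34.9 CPM in Tm3 and 3.14 or less in Mi1. Each was highest in Tm3 library 1 and lowest in library 2, and none overlapped with Mi1. Without library 1, fd59A and zfh1 were still called (log2 fold changes -7.42 and -6.49). bab1, at 38.7, 3.47 and 6.56 CPM in Tm3 and 2.71 to 3.54 in Mi1, was not called without library 1 (log2 fold change -0.66, edgeR adjusted p = 0.474), and its groups overlapped. toy lost its call without Tm3 library 1 (log2 fold change -2.24, edgeR adjusted p = 0.0855), and also without Mi1 library 1 or Mi1 library 3 (edgeR adjusted p = 0.0862 and 0.0813). CG4328 was at 0 in all Mi1 libraries and at 7.44, 1.40 and 7.12 CPM in Tm3, at least 84.7-fold higher on the floor of 3 counts over the group.

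The factors of smallest fold change with at least 100 CPM in both types were ct, exd and onecut among the homeodomain factors. ct, a homeodomain factor, stood at 924, 1098 and 1180 CPM in Mi1 and at 1110, 1528 and 1090 in Tm3 (log2 fold change -0.22, SE 0.314, edgeR adjusted p = 0.751). exd, the partner of hth, stood at 218 to 304 CPM in Mi1 and 178 to 251 in Tm3, with overlapping groups. onecut did not overlap, at 284 to 368 CPM in Mi1 and 137 to 254 in Tm3, but was not called (log2 fold change 0.83, SE 0.303, edgeR adjusted p = 0.0829). Of the other factors, Eip93F and EcR, both of the ecdysone pathway, had log2 fold changes of 0.01 and 0.20 (SE 0.182 and 0.231), and crc 0.06 (SE 0.165). The crc value is uncertain, since 73.5% of its exon bases lie in CG46314 on the same strand. A missed threshold does not show equal levels.

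**Figure D3:**
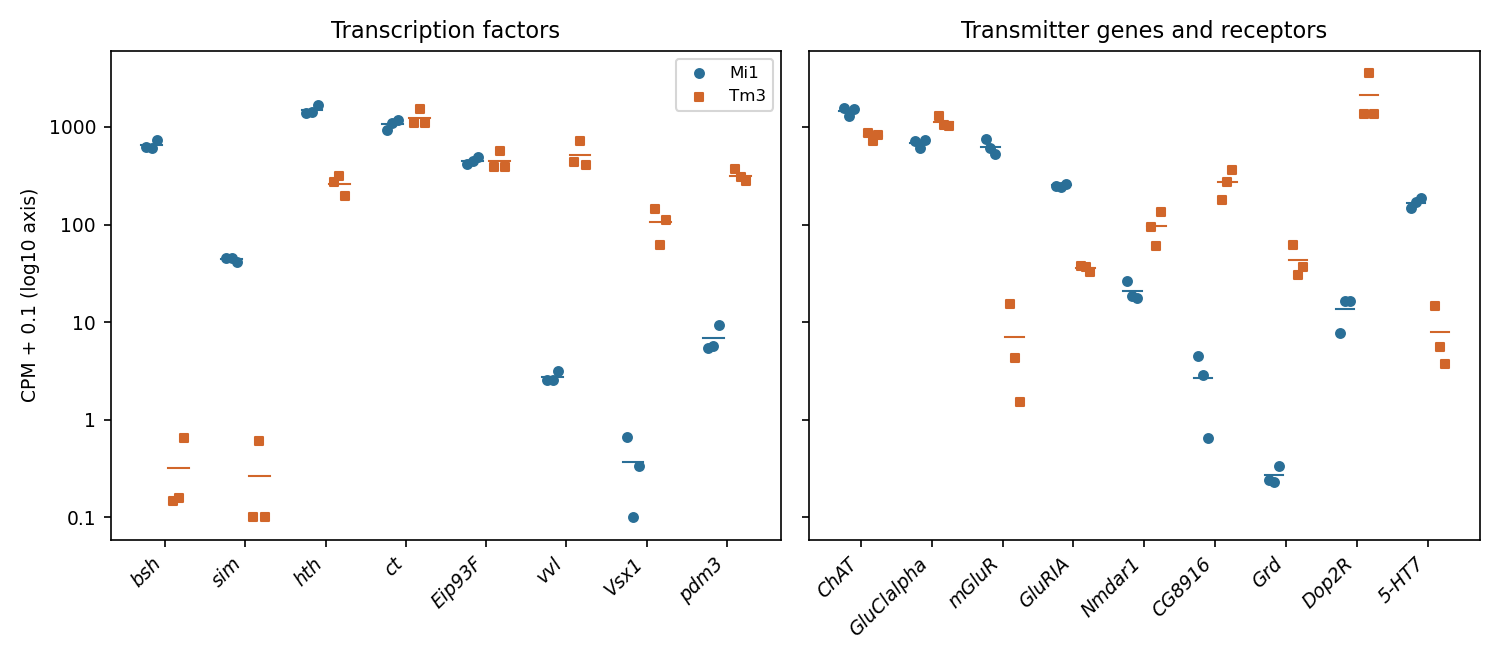
Level in each library of 8 transcription factors (left) and 9 transmitter and receptor genes (right), in CPM on a log10 axis after adding a small constant, with Mi1 as circles, Tm3 as squares and a line at each mean. bsh, sim and mGluR are high in the 3 Mi1 libraries and vvl, Vsx1, pdm3, Grd and Dop2R in the 3 Tm3 libraries, whereas ct and Eip93F overlap between the types.

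None of the 3 tested genes of acetylcholine, the transmitter of both types, was called, but ChAT and Ace stood apart between them. The 3 genes summed to 3406 to 3865 CPM in Mi1 and 1849 to 2985 in Tm3. ChAT, which encodes choline acetyltransferase, stood at 1559, 1306 and 1535 CPM in Mi1 and at 871, 716 and 836 in Tm3. Every Mi1 library was above every Tm3 library, but the difference did not pass (log2 fold change 0.86, SE 0.485, edgeR adjusted p = 0.310). Fitted on the 6 libraries alone, the edgeR adjusted p of ChAT was 0.00663. Of the exon bases of ChAT, 15.1% are shared with VAChT, whose own counts were not analysed here. Ace, the acetylcholinesterase gene, stood at 2246, 2030 and 2252 CPM in Mi1 and at 1944, 1105 and 911 in Tm3, so its groups did not overlap. It passed on the edgeR adjusted p (0.00578), but its log2 fold change of 0.72 (SE 0.183) was under the threshold. ChT, the choline transporter gene, overlapped between the types (log2 fold change -0.81, SE 0.529, edgeR adjusted p = 0.399), and 69.5% of its exon bases lie in CG46318. When a library was left out, 1 of the 3 genes was called, Ace, without Tm3 library 1.

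Of 16 genes for other transmitters, 4 were called, all higher in Tm3, with a median of -0.03 over the list. Tbh, the last enzyme of octopamine synthesis, stood at 2.85, 2.09 and 8.11 CPM in Mi1 and at 224, 160 and 198 in Tm3 (log2 fold change -5.41, SE 0.666, edgeR adjusted p = 5.48e-08). The other genes of octopamine and tyramine handling, Tdc2 and Vmat, were at no more than 3.39 and 10.7 CPM in any of the 6 libraries. VGlut, the vesicular glutamate transporter, stood at 2.57, 7.43 and 4.13 CPM in Mi1 and at 210, 63.8 and 119 in Tm3 (log2 fold change -4.75, SE 0.768, edgeR adjusted p = 1.91e-05). VGlut was highest in Tm3 library 1 and lowest in library 2, and without library 1 its log2 fold change was -4.23. Dm8, a glutamatergic type, averaged 3758 CPM of VGlut. Pu, an enzyme of cofactor synthesis for monoamines, and Trhn, a tryptophan hydroxylase gene, were low, at no more than 15.9 and 4.96 CPM in Tm3, and the Trhn groups overlapped. Each of these 2 lost its call without any 1 of 5 of the 6 libraries. Gad1, the GABA-synthesising enzyme, was at no more than 19.8 CPM in any of the 6 libraries, against 13280 in C3. VGAT and Ddc were not called, nor was any of ple, DAT, SerT and Hdc, each of which was at no more than 5.65 CPM.

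Receptors for glutamate, the transmitter of L1, were divided between the types. Of 16 tested glutamate receptors, 3 were higher in Mi1 and 2 in Tm3, with a median log2 fold change of 0.09. GluClalpha, the glutamate-gated chloride channel, stood at 711, 606 and 738 CPM in Mi1 and at 1294, 1035 and 1030 in Tm3. The groups did not overlap, but the fold change was under the threshold (log2 fold change -0.71, SE 0.192, edgeR adjusted p = 0.0105). GluClalpha lies on chromosome 3R at 19730715 to 19775231 on the plus strand (BDGP6).

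mGluR, the metabotropic glutamate receptor, stood at 755, 602 and 532 CPM in Mi1 and at 15.1, 4.20 and 1.43 in Tm3 (log2 fold change 6.50, SE 0.641, edgeR adjusted p = 2.22e-10). Mi1 was second of the 17 types, after T2 at 774 CPM. mGluR lies on chromosome 4 at 936819 to 949441 on the plus strand (BDGP6). The AMPA-like subunits were higher in Mi1 too. GluRIA stood at 251, 242 and 262 CPM in Mi1 and at 37.6, 36.6 and 32.8 in Tm3 (log2 fold change 2.82, SE 0.466, edgeR adjusted p = 1.64e-05). GluRIB stood at 103, 132 and 124 CPM in Mi1 and at 17.4, 20.2 and 20.8 in Tm3 (log2 fold change 2.62, SE 0.368, edgeR adjusted p = 4.30e-07).

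On the other side, Nmdar1, the obligate NMDA receptor subunit, stood at 26.3, 18.4 and 17.4 CPM in Mi1 and at 93.3, 60.4 and 135 in Tm3 (log2 fold change -2.23, SE 0.278, edgeR adjusted p = 3.14e-08). Its partner Nmdar2 overlapped, at 352 to 379 CPM in Mi1 and 192 to 376 in Tm3 (log2 fold change 0.38, edgeR adjusted p = 0.312). GluRIIA, a subunit best known from muscle, was low, at 8.17, 6.66 and 29.9 CPM in Tm3 and 0.551 or less in Mi1 (log2 fold change -5.29, SE 0.957, edgeR adjusted p = 1.57e-04). KaiR1D, CG11155 and GluRIIE, the remaining receptors at 10 CPM or more, were not called. ort, a histamine-gated chloride channel of photoreceptor targets, stood at 1.30 to 1.63 CPM in Mi1 and at 39.9, 5.71 and 17.2 in Tm3. It was called (log2 fold change -3.83, edgeR adjusted p = 0.00613), but not without Tm3 library 1 (log2 fold change -2.96, edgeR adjusted p = 0.0539).

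Receptors for acetylcholine also differed. Of 10 nicotinic subunits, 1 was higher in Mi1 and 4 in Tm3, with a median of -0.38. nAChRalpha7 stood at 101, 95.9 and 106 CPM in Mi1 and at 816, 608 and 719 in Tm3 (log2 fold change -2.82, SE 0.182, edgeR adjusted p = 8.34e-17). nAChRalpha2 and nAChRalpha1 were higher in Tm3 as well (log2 fold changes -2.68 and -1.80), and nAChRbeta2 was (-1.11), though not called without Mi1 library 2 or Tm3 library 3. nAChRalpha5 stood at 503, 634 and 746 CPM in Mi1 and at 308, 156 and 165 in Tm3, in the other direction (log2 fold change 1.58, SE 0.245, edgeR adjusted p = 3.64e-06). Of the 3 muscarinic receptors, mAChR-A was higher in Mi1, at 322, 399 and 425 CPM against 186, 137 and 128 (log2 fold change 1.35, SE 0.199, edgeR adjusted p = 1.31e-06). These groups did not overlap for any of the subunits named here.

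Of 7 GABA receptor genes, 1 was higher in Mi1 and 3 in Tm3, with a median of -0.83. CG8916, a GABA-A-like subunit gene, stood at 4.42, 2.80 and 0.551 CPM in Mi1 and at 178, 274 and 364 in Tm3 (log2 fold change -6.89, SE 0.851, edgeR adjusted p = 7.13e-08). CG8916 lies on chromosome X at 15921955 to 15924558 on the plus strand (BDGP6). Grd, another subunit of this family, stood at 0.143, 0.130 and 0.236 CPM in Mi1 and at 61.6, 30.2 and 36.8 in Tm3 (log2 fold change -7.81, SE 1.30, edgeR adjusted p = 3.15e-05). The Grd value is uncertain, since 27.5% of its exon bases overlap CG5577 on the other strand and the library kit does not mark strand. The metabotropic receptors GABA-B-R3 and GABA-B-R1 went opposite ways. The groups overlapped for GABA-B-R2, which was not called (log2 fold change -0.21, SE 0.257, edgeR adjusted p = 0.700). GABA-B-R3 stood at 71.6, 109 and 89.1 CPM in Mi1 and at 860, 617 and 614 in Tm3 (log2 fold change -2.96, SE 0.389, edgeR adjusted p = 1.20e-07). GABA-B-R1 stood at 718, 673 and 700 CPM in Mi1 and at 333, 366 and 245 in Tm3 (log2 fold change 1.15, SE 0.165, edgeR adjusted p = 6.94e-07). Without Tm3 library 3 the fold change of GABA-B-R1 was just under 2 (log2 fold change 0.996).

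Of 17 monoamine receptors, 2 were higher in Mi1 and 3 in Tm3, with a median of -0.04. Dop2R, the D2-like dopamine receptor, stood at 7.56, 16.4 and 16.3 CPM in Mi1 and at 1373, 3574 and 1371 in Tm3 (log2 fold change -7.27, SE 0.541, edgeR adjusted p = 4.79e-14). Tm3 had the highest mean of the 17 types, above T2 at 1608 CPM, and Dop2R lies on chromosome X at 20004680 to 20062706 on the minus strand (BDGP6). Octalpha2R, an octopamine receptor, stood at 5.85 to 8.41 CPM in Mi1 and 44.6 to 66.7 in Tm3 (log2 fold change -2.97, SE 0.319, edgeR adjusted p = 5.08e-10). Oct-TyrR was also called, with highest libraries of 3.78 CPM in Mi1 and 16.4 in Tm3, but its call was lost when any 1 of the 6 libraries was left out. In Mi1, Octbeta1R, another octopamine receptor, stood at 2146, 2127 and 2112 CPM and in Tm3 at 512, 516 and 503 (log2 fold change 2.06, SE 0.538, edgeR adjusted p = 0.00851). 5-HT7, a serotonin receptor, stood at 147, 169 and 186 CPM in Mi1 and at 14.6, 5.48 and 3.65 in Tm3 (log2 fold change 4.4, SE 0.557, edgeR adjusted p = 9.85e-08). The groups did not overlap for any of these 5 receptors.

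Neuropeptide genes and their receptors were called in both directions. Of 29 tested neuropeptide genes, 4 were higher in Mi1 and 2 in Tm3, with a median of 0.30 and with 1 to 3 higher in Mi1 when a library was left out. spab stood at 17.0, 18.2 and 16.7 CPM in Mi1 and at 612, 309 and 464 in Tm3 (log2 fold change -4.74, SE 0.816, edgeR adjusted p = 4.62e-05), and Tm3 had the highest mean of the 17 types. Gpb5, a glycoprotein hormone subunit gene, had a log2 fold change of -1.22. Proc, the proctolin gene, stood at 118, 76.7 and 100 CPM in Mi1 and at 11.9, 17.0 and 14.2 in Tm3 (log2 fold change 2.77, SE 0.790, edgeR adjusted p = 0.0178), but DESeq2 gave an adjusted p of 0.0690 and the call was lost without Tm3 library 1 or 3. ITP, an ion transport peptide gene, stood at 18, 22.1 and 27.1 CPM in Mi1 and at 6.34, 7.33 and 0.971 in Tm3 (log2 fold change 2.21, SE 0.506, edgeR adjusted p = 0.00191). Nplp1 was called (log2 fold change 1.5), but its call was lost when any 1 library was left out. Dh31, the fourth gene higher in Mi1, was at no more than 8.15 CPM. Its call (log2 fold change 3.90, edgeR adjusted p = 0.0488) was lost without any 1 of 5 of the 6 libraries, and its DESeq2 adjusted p was 0.142. Without Mi1 library 2 its log2 fold change was 2.73.

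Of 40 neuropeptide receptors, 6 were higher in Mi1 and 10 in Tm3, the latter 5 to 9 when a library was left out, with a median of -0.29. TkR99D, a receptor for tachykinin, stood at 1.28, 0.977 and 1.57 CPM in Mi1 and at 58.9, 23.1 and 52.0 in Tm3 (log2 fold change -5.10, SE 0.469, edgeR adjusted p = 7.42e-12). MsR1, a myosuppressin receptor, stood at 4.99, 3.65 and 1.69 CPM in Mi1 and at 79.8, 79.8 and 87.8 in Tm3 (log2 fold change -4.66, SE 0.637, edgeR adjusted p = 4.35e-07). CNMaR, the receptor for CNMamide, stood at 1.14 to 2.22 CPM in Mi1 and 30.2 to 43.4 in Tm3 (log2 fold change -4.46, SE 0.564, edgeR adjusted p = 5.76e-08). These groups did not overlap. PK2-R2, a pyrokinin receptor gene, stood at 0, 0 and 1.38 CPM in Mi1 and at 34.1, 36.3 and 26.3 in Tm3. It was called by edgeR (adjusted p = 0.0230), with a DESeq2 adjusted p of 0.0563, and it was not called without Mi1 library 1 or 2. rk, the bursicon receptor, was called (log2 fold change -4.25), but not without Mi1 library 2.

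Receptors higher in Mi1 were led by FMRFaR, the FMRFamide receptor, at 87.3, 71.9 and 77.9 CPM in Mi1 and 3.26, 4.48 and 5.50 in Tm3 (log2 fold change 4.16, SE 0.731, edgeR adjusted p = 6.66e-05). Dh44-R2, a diuretic hormone receptor, stood at 286, 236 and 202 CPM in Mi1 and at 22.0, 18.7 and 27.8 in Tm3 (log2 fold change 3.40, SE 0.327, edgeR adjusted p = 2.90e-11). It shares 16.8% of its exon bases with CG34234 on the other strand, and CG34234, with 89.4% of its bases shared, stood at 48.5 to 63.2 CPM in Mi1 and 1.85 to 6.33 in Tm3. sNPF-R, the receptor for short neuropeptide F, stood at 250, 185 and 209 CPM in Mi1 and at 48.7, 40.7 and 45.3 in Tm3 (log2 fold change 2.26, SE 0.469, edgeR adjusted p = 6.56e-04). Mi1 had the highest mean of the 17 types for each of these 3 receptors.

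Surface proteins known for their part in the choice of synaptic partners were called mostly on the Tm3 side. Of 33 tested Dpr and DIP genes, immunoglobulin proteins that bind each other across cells, 2 were higher in Mi1 and 16 in Tm3, against 2.55% and 3.86% of the tested genes. Their median log2 fold change was -1.05. DIP-eta stood at 5.28, 0.717 and 2.36 CPM in Mi1 and at 638, 603 and 1028 in Tm3 (log2 fold change -8.22, SE 1.19, edgeR adjusted p = 3.01e-06). DIP-kappa stood at 9.56, 8.80 and 11.6 CPM in Mi1 and at 622, 672 and 895 in Tm3 (log2 fold change -6.19, SE 0.916, edgeR adjusted p = 3.15e-06). With DIP-theta, 3 DIP genes thus stood at 603 CPM or more in every Tm3 library and at 11.6 or less in every Mi1 library, and they were named for their large fold changes.

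DIP-gamma and dpr15 were called but uneven. DIP-gamma stood at 2.85, 3.65 and 0.984 CPM in Mi1 and at 140, 23.1 and 82.3 in Tm3, and dpr15 at 2.43, 2.54 and 0.0394 in Mi1 and at 162, 20.5 and 80.9 in Tm3. Both were highest in Tm3 library 1, and without it their log2 fold changes were -4.47 and -5.12 against -5.10 and -5.90. dpr9 and dpr2 were higher in Tm3 at more even levels, with 515 to 727 CPM against 42.4 to 47.2 and 259 to 336 against 11.6 to 15.2. dpr6, dpr1, dpr10, dpr11, dpr13, dpr16, dpr17, dpr5 and DIP-alpha made up the rest, and dpr13 was not called without Tm3 library 1. The groups overlapped for dpr5, whose call was also lost without any 1 of 5 of the 6 libraries.

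On the Mi1 side, dpr18 stood at 725, 764 and 622 CPM in Mi1 and at 88.6, 29.9 and 61.5 in Tm3 (log2 fold change 3.55, SE 0.342, edgeR adjusted p = 2.90e-11). DIP-zeta stood at 37.8, 22.7 and 34.2 CPM in Mi1 and at 2.07, 1.29 and 0.231 in Tm3. The groups did not overlap and Mi1 had the highest mean of the 17 types. The call (edgeR adjusted p = 0.0410) was lost when any 1 of the 6 libraries was left out, though the 6 libraries fitted alone gave 5.19e-05. Several Dpr genes were alike in the pair. dpr8, dpr19 and dpr7 had log2 fold changes of 0.00, 0.07 and -0.09 (SE 0.246, 0.193 and 0.192), with overlapping groups at 152 to 462 CPM.

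**Figure D4:**
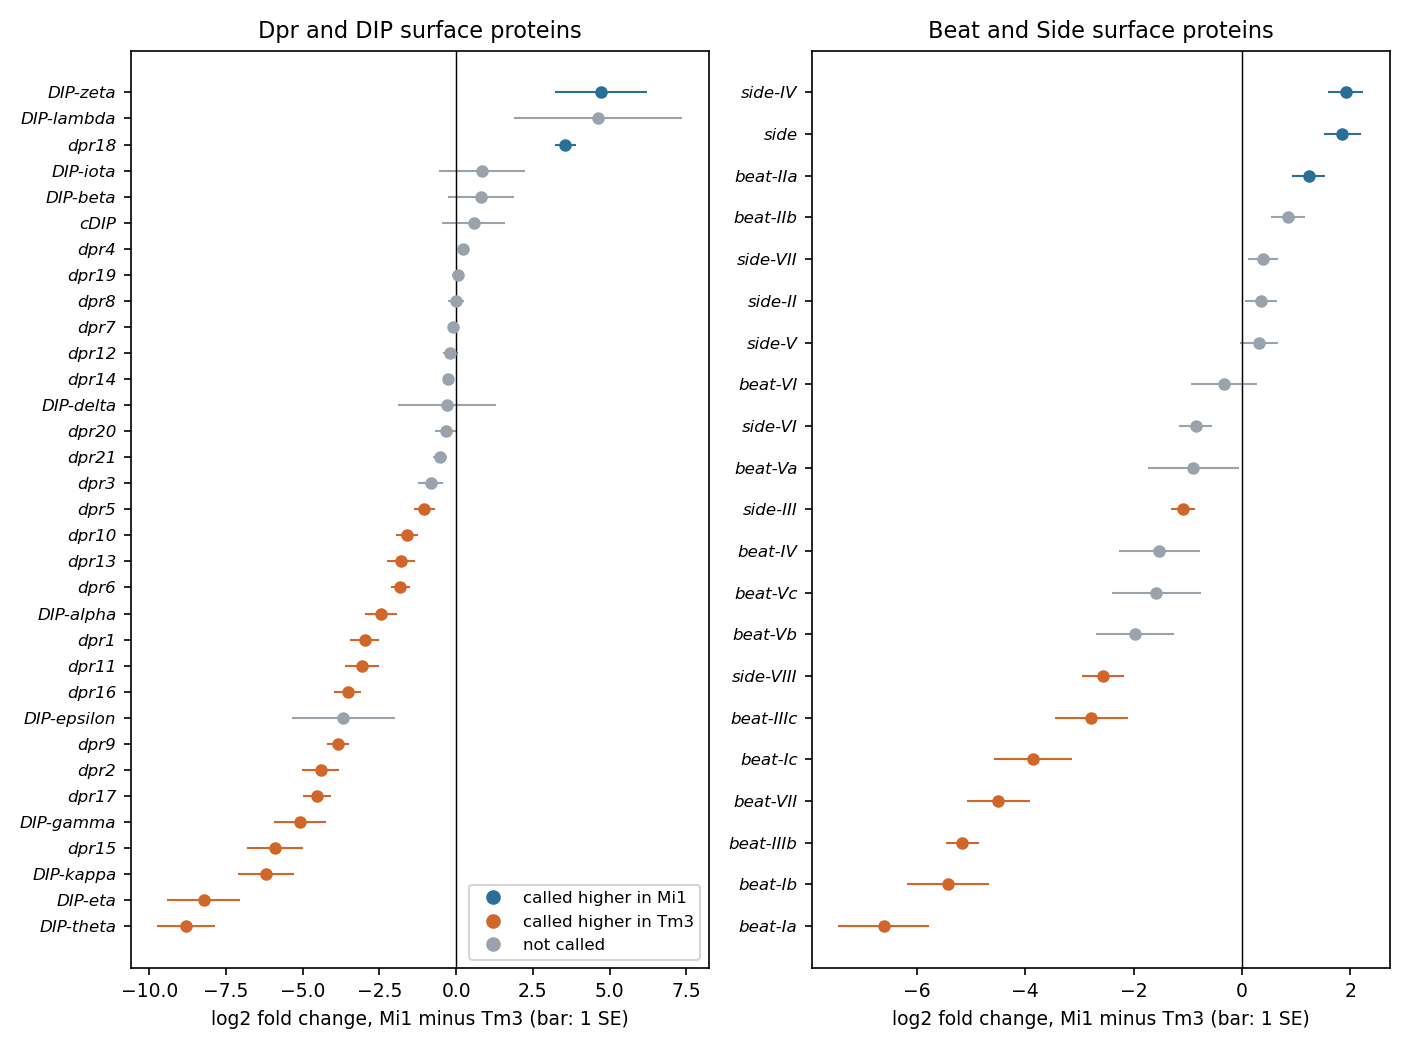
Log2 fold change of each tested Dpr and DIP gene (left) and Beat and Side gene (right), with bars of 1 SE, and values above 0 higher in Mi1. DIP-theta and DIP-eta are lowest on the left and beat-Ia on the right, and most called genes lie on the Tm3 side.

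Beat and Side proteins, another set of binding partners, were also called mostly on the Tm3 side. Of 21 tested genes, 3 were higher in Mi1 and 8 in Tm3, with a median of -1.09. beat-IIIb stood at 10.7, 15.6 and 12.9 CPM in Mi1 and at 302, 654 and 457 in Tm3 (log2 fold change -5.16, SE 0.310, edgeR adjusted p = 1.12e-17). beat-Ia, beat-Ib and beat-Ic were all higher in Tm3 (log2 fold changes -6.61, -5.43 and -3.86), and beat-VII was as well (-4.50). In Mi1, side-IV stood at 960 to 1019 CPM against 236 to 309 in Tm3, but a large part of its exon bases lies opposite asRNA:CR46354, so its value is uncertain. side stood at 312 to 399 CPM against 80.8 to 114 (log2 fold change 1.86, SE 0.342). side-V, beat-VI and side-II were the most alike, with log2 fold changes of 0.32, -0.33 and 0.35.

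Of 85 other adhesion and guidance genes, 9 were higher in Mi1 and 23 in Tm3, with a median of -0.08. Con, the leucine-rich repeat protein connectin, stood at 1424, 1459 and 1352 CPM in Mi1 and at 57.5, 55.9 and 61.4 in Tm3 (log2 fold change 4.60, SE 0.369, edgeR adjusted p = 1.25e-13). wry, a transmembrane protein with EGF repeats, stood at 29.5, 28.1 and 26.0 CPM in Mi1 and at 890, 621 and 829 in Tm3 (log2 fold change -4.81, SE 0.398, edgeR adjusted p = 4.04e-13). klg, an immunoglobulin adhesion protein, stood at 7.56, 7.75 and 10.5 CPM in Mi1 and at 309, 489 and 426 in Tm3 (log2 fold change -5.55, SE 0.619, edgeR adjusted p = 5.85e-09). fz, the Wnt receptor, and Tl, the Toll receptor, were higher in Tm3 as well (log2 fold changes -4.70 and -4.67). Libraries of the 2 types did not overlap for any of these 5 genes, as for 767 of all 805 called genes. sns, Nrx-1 and PlexA were the most alike of those with 100 CPM or more, with log2 fold changes of -0.07, -0.27 and 0.37.

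Called potassium channel genes all lay on the Tm3 side, whereas calcium, sodium, chloride and cation channel genes were called in both directions. Of 26 potassium channel genes, 5 were called, all higher in Tm3, with a median of -0.57. SK, the calcium-activated channel, stood at 24.4, 30.7 and 28.8 CPM in Mi1 and at 429, 401 and 325 in Tm3 (log2 fold change -3.78, SE 0.197, edgeR adjusted p = 5.55e-20). Elk, a voltage-gated channel, stood at 2.14, 6.26 and 6.93 CPM in Mi1 and at 173, 154 and 172 in Tm3 (log2 fold change -4.97, SE 0.792, edgeR adjusted p = 1.14e-05). eag, of the same family as Elk, and Hk, a channel beta subunit, were also higher in Tm3 (log2 fold changes -2.36 and -1.25), as was CG1688 (-2.72), 20.9% of whose exon bases lie opposite asRNA:CR44205. The groups did not overlap for any of the 5.

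Of 35 calcium, sodium, chloride and cation channel genes, 2 were higher in Mi1 and 1 in Tm3, with a median of 0.07. The called share, 8.57%, was near the 6.40% of all tested genes. pHCl-1, a pH-sensitive chloride channel, stood at 34.5, 33.1 and 32.7 CPM in Mi1 and at 561, 583 and 571 in Tm3 (log2 fold change -4.10, SE 0.448, edgeR adjusted p = 2.23e-09). Trpm, a cation channel, and stol, a calcium channel subunit gene, were higher in Mi1 (log2 fold changes 1.80 and 1.74). Among 7 innexins, the gap junction proteins, shakB was called. shakB stood at 37.1, 32.6 and 50.7 CPM in Mi1 and at 505, 552 and 375 in Tm3 (log2 fold change -3.57, SE 0.413, edgeR adjusted p = 8.11e-09), and every Tm3 library was above every Mi1 library. Of 28 active zone and vesicle release genes, only Sytalpha, a synaptotagmin gene, was called (3.57%, against 6.40% of all tested genes). It was higher in Mi1, at 762, 612 and 712 CPM against 149, 96.8 and 137. That call was lost without any 1 of 5 of the 6 libraries.

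Of 43 genes of cyclic nucleotide and calcium signalling, 6 were higher in Mi1 and 5 in Tm3, with a median of 0.31. Besides Pde11 in Mi1, 2 adenylyl cyclase genes and a phospholipase C gene led in Tm3. Ac78C stood at 6.28, 21.7 and 17.4 CPM in Mi1 and at 189, 138 and 104 in Tm3 (log2 fold change -3.23, SE 0.598, edgeR adjusted p = 1.41e-04). rut, the calmodulin-stimulated adenylyl cyclase, stood at 39.5, 92.6 and 84.0 CPM in Mi1 and at 407, 234 and 225 in Tm3 (log2 fold change -2, SE 0.234, edgeR adjusted p = 5.75e-09). Plc21C was higher in Tm3 as well (log2 fold change -1.56), and Ac76E was called (-3.02) but not without Mi1 library 1, Mi1 library 2 or Tm3 library 1. The groups did not overlap for any of these genes.

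Of 13 activity-regulated genes, 2 were higher in Mi1 and 5 in Tm3, the latter 2 to 5 when a library was left out, with a median of -0.17. sr, an EGR-family factor, stood at 56.6, 30.6 and 20.5 CPM in Mi1 and at 184, 146 and 263 in Tm3 (log2 fold change -2.47, SE 0.629, edgeR adjusted p = 0.00673), and it was not called without Mi1 library 3. CG14024 was higher in Tm3 (log2 fold change -1.85, SE 0.238), and meng, a kinase gene, in Mi1 (1.83, SE 0.300). Hr38, a nuclear receptor, stood at 458, 433 and 414 CPM in Mi1 and at 1615, 1457 and 624 in Tm3, and Atf3 at 15.7 to 19.3 and 50.4 to 69.7. Their calls (edgeR adjusted p = 0.0410 and 0.0244) were lost without any 1 of 5 and any 1 of 4 of the 6 libraries. Fitted on the 6 libraries alone, Hr38 and Atf3 had edgeR adjusted p of 0.00471 and 7.04e-04. Of 13 clock genes, cyc was called, at a log2 fold change of -1.05, a share of 7.69% that was near the 6.40% of all tested genes. That call was lost without Mi1 library 2, Mi1 library 3 or Tm3 library 3.

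All 15 mitochondrially encoded genes had a higher mean in Mi1, and 10 were called, 7 to 13 when a library was left out, with a median log2 fold change of 1.42. Their sum was 28870, 22211 and 24018 CPM in Mi1 and 4441, 11303 and 6130 in Tm3, so the groups did not overlap. mt:lrRNA, the large mitochondrial ribosomal RNA, stood at 16470, 13509 and 12656 CPM in Mi1 and at 1428, 4484 and 3081 in Tm3 (log2 fold change 2.25, SE 0.373, edgeR adjusted p = 2.12e-05). mt:CoI, a subunit of cytochrome oxidase, stood at 3074, 2420 and 3217 CPM in Mi1 and at 650, 1159 and 510 in Tm3 (log2 fold change 1.91, SE 0.306, edgeR adjusted p = 7.82e-06). mt:ND4, mt:ND4L and mt:ND5, of complex I, had log2 fold changes of 2.25, 3.36 and 2.06. The 78 cytosolic ribosomal protein genes held 1 that was called, RpL36A (1.28%), and summed to 7384 to 8791 CPM in Mi1 and 6035 to 12858 in Tm3. Of 15 stress genes, 1 low gene, Gadd45, was called, a share of 6.67% that was near the 6.40% of all tested genes. The stress genes summed to 2758 to 3002 CPM in Mi1 and 2611 to 4189 in Tm3. The part of RNA quality or of the sort in these differences was not tested.

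**Figure D5:**
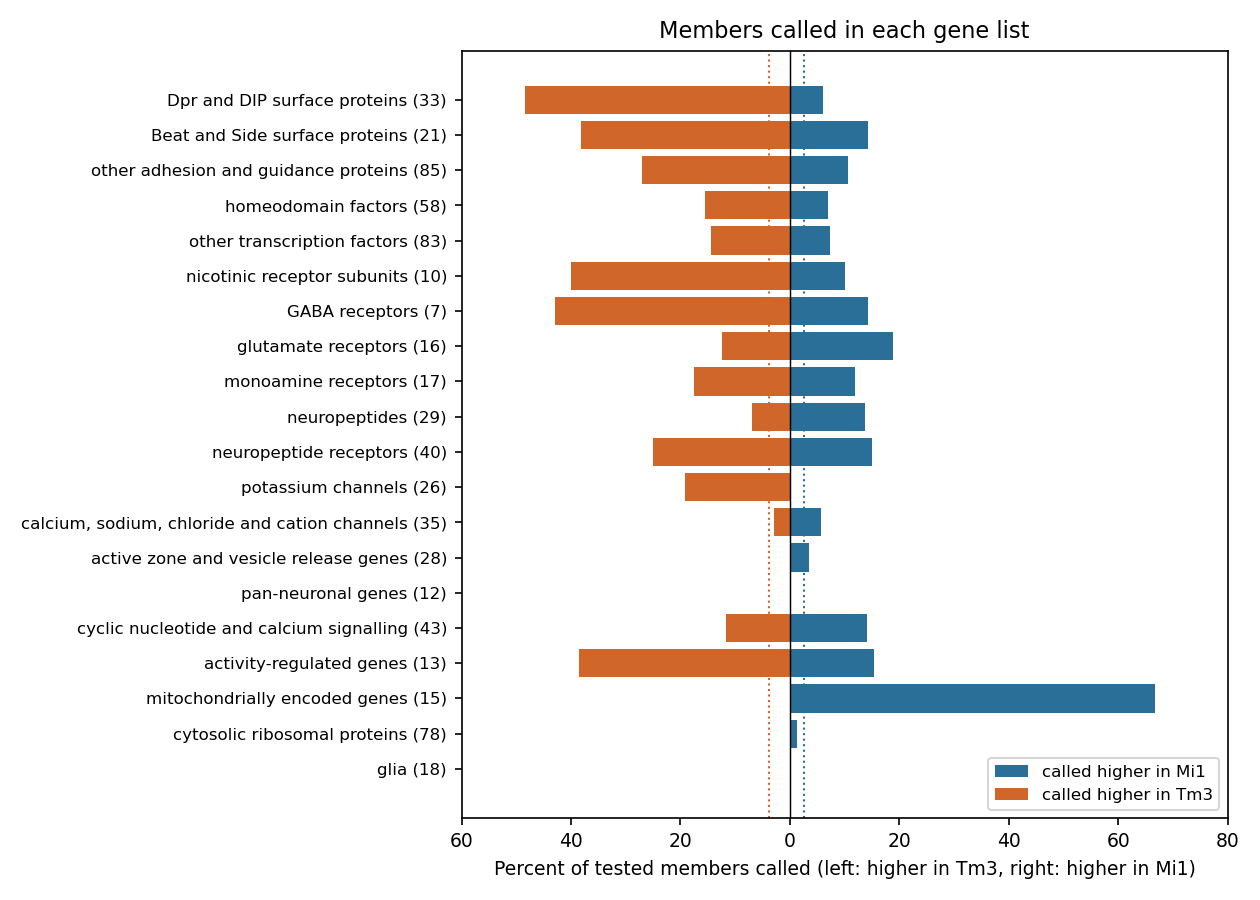
Percent of the tested members of 20 gene lists called higher in Tm3 (left) and in Mi1 (right), with the number tested in brackets and dotted lines at 3.86% and 2.55%, the shares of all tested genes. Dpr and DIP genes reach furthest on the Tm3 side and mitochondrially encoded genes on the Mi1 side, and pan-neuronal genes and glial genes have none called.

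The spread among Tm3 libraries touched part of the Tm3 genes. Of the 485 genes higher in Tm3, 117 were at least 2-fold higher in Tm3 library 1 than in library 2, and 26 were the other way. The share of all tested genes with such a difference was not computed, so these counts are not shown to be particular to genes higher in Tm3. Of the 117 genes, 22 had their highest mean in Dm8, as did 38 of all 485. Besides VGlut, fd59A, DIP-gamma, dpr15 and ort, the 117 genes included tj, a Maf-family factor chosen after its values were seen. It stood at 15.1, 1.45 and 7.49 CPM in Tm3 and at no more than 0.354 in Mi1. Without library 1, tj, Grd and VGlut were still called. Of 17 factors that mark other types of the series, 4 were called, all higher in Tm3 (CG4328, pdm3, tj and Lmx1a), and the list summed to 242 to 295 CPM in Mi1 and 529 to 792 in Tm3. Most of the difference between these sums came from pdm3 alone, at the levels given above. Whether cells of other types lay in the Tm3 sort was not tested. The 3 genes often linked to transgenes, w, y and v, summed to 21 to 54 CPM in Mi1 and 66 to 111 in Tm3, with a median log2 fold change of -1.33. None was called, but 1 passed on the adjusted p, and 2 were called without Mi1 library 3 or Tm3 library 3. w stood at 16.8 to 39.4 CPM in Mi1 and 46.0 to 72.2 in Tm3, and y at no more than 12.7 in Mi1 and 35.1 in Tm3.

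One gene set both types apart from all others. Obp99c, an odorant-binding protein gene, stood at 93.2, 109 and 113 CPM in Mi1 and at 120, 132 and 107 in Tm3. With at least 20 CPM in both types, it was the only gene whose 6 libraries here all lay above every library of the other 15 types, of which Tm2 came next at 55.6 CPM. Obp99c was chosen after its values were seen, and 3.4% of its exon bases overlap Gycalpha99B on the other strand.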

How the data were processed

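Per the labels' protocols, cDNA was made with SMART-Seq v4 from 300 to 500 pg of total RNA and libraries with Nextera XT. Trimmomatic 0.32, STAR 2.5.2, HTSeq 0.6.1 and build BDGP6 are named in the submitters' processing notes, and the strand setting is not given in the sources used here. The values the authors deposited are raw read counts per gene, for 17558 identifiers, and 5 summary lines of the counting, 57.14% to 59.64% of the total in the 6 libraries, were left out. All 57 libraries were fitted in edgeR 4.0.16 (R 4.3.3) with TMM scaling, filterByExpr, a robust quasi-likelihood model and 1 coefficient per group, so the types share 1 estimate of the spread, and the contrast was Mi1 minus Tm3. SE is the log2 fold change divided by the square root of F. Coordinates, lengths and overlaps came from Ensembl release 115, and entries without a match, VAChT among them, were not analysed here. DESeq2 1.42.0 and other settings were alternatives. A floor covers counting error alone, because PCR copies carry no molecular identifiers.

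The comparison and the gene lists were chosen with earlier results of these data known. The text names the markers and hth, the transmitter genes, and the 12 genes of largest fold change in each direction with at least 20 CPM in the higher type and no overlap. It also names up to 5 called genes of each list with at least 10 CPM, all glutamate receptors at that level, and the 3 most alike transcription factors and surface genes at 100 CPM or more. The other listed genes given with values (CG4328, toy, Lmx1a, GABA-B-R2, Dh31, FMRFaR, Dh44-R2, CG34234, sNPF-R, dpr18, dpr9, dpr2, DIP-zeta, side-IV, side, w, y, Gadd45 and the names in lists of called members) were chosen after their values were seen. One gene that the rule names is not reported here.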

Additional observations from a re-analysis of the deposited data

How the results depend on the processing

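Mi1 and Tm3 ranked first among pairs of types by called genes and by correlation across genes. Requiring a fold change above 2 within the test itself (glmTreat) gave 123 genes higher in Mi1, 245 higher in Tm3 and 108 called genes of the lists, against 320, 485 and 182. Leaving out 1 library gave 208 to 317 genes higher in Mi1, the lowest without Tm3 library 3, 395 to 461 higher in Tm3, and 157 to 171 of the lists. The other alternatives run gave counts within 1.5 times those reported: 294 to 399 and 338 to 515 genes for DESeq2, size factors by relative log expression, no filter, at least 5 CPM, the 6 libraries alone, the 17 single types and removal of the trend with gene length, and 418 and 696 on the adjusted p alone. Of 107 called named genes, 77 were called under every alternative and none turned direction. With replicate number as a block, 318 and 471 genes were called, and 179 of the lists. Deviations of same-numbered libraries from their type mean correlated at -0.129, -0.099 and -0.108, and those of differently numbered libraries at -0.038 to 0.149. These weak values cannot decide whether the numbers pair the libraries, because deviations from a mean of 3 libraries are not independent. Depth limits Mi1 library 1, the shallowest of the 6, at 6.675 M (mega) reads.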
